A study of Homo sapiens with 21 samples.

Results

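*EXT1* is the human gene to which the most HNRNPK-bound clusters were assigned, and the 1612 clusters that carry its name, of 778762 in 4 libraries, are described here. A cluster is a stretch of overlapping sequencing reads with T-to-C changes that marks a place where HNRNPK was crosslinked to RNA. The members were every cluster that the authors' annotation names *EXT1*, and the gene itself was chosen by its number of clusters, which was above that of any other gene in the parental cytoplasmic library. Its number of clusters is therefore given as a description.

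HNRNPK PAR-CLIP was carried out in MDA-MB-231 cells, a long-established line of triple-negative breast cancer. Parental cells and cells in which *KRT19*, the gene of keratin 19, had been knocked out with CRISPR/Cas9 (*KRT19* KO) were labelled with 4-thiouridine, exposed to ultraviolet light and separated into a cytoplasmic and a nuclear fraction. HNRNPK was then precipitated with an anti-HNRNPK/J antibody, giving 4 libraries. Lists of 4 values below give the cytoplasmic libraries first and the nuclear libraries last, each time parental before *KRT19* KO. The comparisons ask how loss of keratin 19 and the cell fraction relate to what HNRNPK binds, and whether the KO line is 1 clone is not given in the sources used here. Each condition had 1 library, so differences between conditions have no replicate check and no p-values are given. All 95% intervals below cover counting error only.

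EXT1 is a glycosyltransferase of the Golgi and endoplasmic reticulum. Together with EXT2 it adds the alternating sugars that make up heparan sulfate, the chain carried by proteoglycans such as syndecans and glypicans, and inherited loss of either gene causes multiple osteochondromas. HNRNPK is an RNA-binding protein of the nucleus and cytoplasm whose KH domains favour C-rich RNA, and in PAR-CLIP a crosslinked 4-thiouridine shows up in sequencing as a T-to-C change.

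Reads in clusters numbered 3252800 to 6216226 per library and clusters 177530 to 201726. Intronic clusters took 42.3% and 23.0% of reads in the parental and *KRT19* KO cytoplasm and 67.0% and 59.7% in the nucleus. In the parental cytoplasmic library, a single intronic cluster of *SLCO5A1* held 5.83% of all reads. Without it the intronic share of that library was 38.8%. The *EXT1* read shares and ratios for the whole gene, of all or intronic reads, are also given without it. The values per 1000000 reads, by window or site, and the heparan sulfate ratios and counts keep it, as do the background values on all reads. *NEAT1*, a nuclear RNA, had 226.4 and 203.8 RPM, the reads per 1000000 reads in clusters, in the parental and *KRT19* KO cytoplasmic libraries and 789 and 1092 in the nuclear ones, while *MALAT1*, another nuclear RNA, had 1229 and 842 in the cytoplasmic and 888 and 548 in the nuclear libraries. *KRT19* itself had 1 cluster of 7 reads in the parental cytoplasmic library, 1 of 5 reads in the *KRT19* KO cytoplasmic library and none in the nuclear libraries, which is too few to check the genotype.

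The *EXT1* gene lies at chr8:118806729-119124065 of hg19 on the minus strand and spans 317.337 kb, with 11 exons and 10 introns in its reference transcript. Intron 1 alone is 272.883 kb long and makes up 86.0% of the gene. *EXT1* had 410 clusters in the parental cytoplasmic library, 313 in the *KRT19* KO cytoplasmic, 449 in the parental nuclear and 440 in the *KRT19* KO nuclear library. It stood first among all genes in each of the 4, and the gene next below it was FAM155A with 320 clusters in the parental cytoplasmic library and RP11-115J23.1 with 293, 376 and 372 in the others. All *EXT1* clusters lay on the strand of the gene, and 0, 2, 2 and 4 clusters lay on the opposite strand within its span.

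Cluster density is the same number divided by gene length, and so is also a description. *EXT1* had 1.29, 0.986, 1.41 and 1.39 clusters per kb of gene in the 4 libraries. Among 3427 genes of at least 100 kb this was rank 2, 1, 2 and 1, against a median gene of 0.0774, 0.0497, 0.0743 and 0.0651 per kb. HMGA2, which encodes a chromatin protein and spans 142 kb, was denser in both parental libraries at 1.42 and 1.62 per kb. Of the 10 genes with the most clusters after *EXT1*, 9 had a known span, 8 of them longer than *EXT1* and all 9 less dense in each library. RP11-115J23.1, the first of the 10, was not matched to a span. EGFR, the epidermal growth factor receptor gene, spans 193 kb, less than *EXT1*, and had 0.960, 0.742, 1.08 and 1.04 clusters per kb. FAM155A, spread over 704 kb, had 0.455, 0.243, 0.435 and 0.338 clusters per kb. EDIL3, which encodes a secreted integrin-binding protein, had 0.637, 0.329, 0.567 and 0.317, and PTPRM, which encodes a receptor tyrosine phosphatase, had 0.332, 0.182, 0.357 and 0.262.

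Nearly all of the *EXT1* clusters were intronic, with 393 of 410, 297 of 313, 441 of 449 and 432 of 440 in the 4 libraries. Introns also make up nearly all of the 317.337 kb of the gene, 272.883 kb of it in intron 1 alone. Intron 1 held 374, 278, 412 and 408 of them, or 91.2%, 88.8%, 91.8% and 92.7% of the clusters of the gene. Introns 2 to 10, which add up to 36.2 kb, held 19, 19, 29 and 24. Intron 1 was thus more densely covered, at 1.37, 1.02, 1.51 and 1.495 clusters per kb against 0.525, 0.525, 0.801 and 0.663 in the other introns. The ratio of the densities was 2.61 (95% interval 1.65 to 4.14), 1.94 (1.22 to 3.09), 1.89 (1.29 to 2.75) and 2.26 (1.495 to 3.40). Introns 2, 6 and 9, which are short, had at most 1 cluster in any library. Introns 2 to 10 all lie 3' of intron 1, so these densities were not matched for position along the gene. The window from 260 to 280 kb from the transcription start, most of which is intron 1, held only 10, 8, 10 and 15 clusters.

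Clusters thinned out from the 5' to the 3' end of the gene. In windows of 20 kb from the transcription start, the parental cytoplasmic library had 36, 44 and 42 clusters in the first 3 windows and 10 in the window from 260 to 280 kb. In the *KRT19* KO cytoplasmic library the same windows held 35, 30, 24 and 8, in the parental nuclear library 47, 42, 45 and 10, and in the *KRT19* KO nuclear library 32, 43, 34 and 15. Upstream of the midpoint of the gene lay 66.6%, 65.2%, 66.6% and 63.9% of the clusters and 83.8%, 78.2%, 80.3% and 78.8% of the reads. Other genes of at least 100 kb with at least 50 clusters had a median of 49.3%, 46.0%, 51.3% and 51.04% of their clusters upstream of the midpoint. The share of *EXT1* was above that of 89.7% of 565 such genes, 89.9% of 328, 87.4% of 547 and 82.1% of 469. The decline is present within intron 1 as well, where 65.2%, 63.7%, 62.1% and 58.8% of the clusters lay upstream of the midpoint of the intron.

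**Figure D1:**
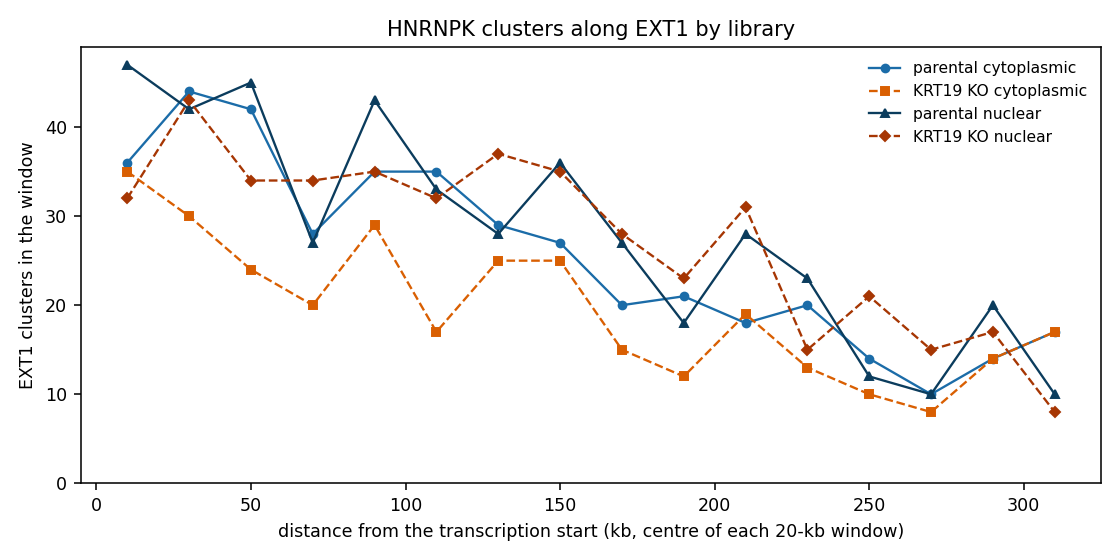
Number of *EXT1* clusters (vertical axis) in windows of 20 kb by distance from the transcription start (horizontal axis, kb), with a line for each of the 4 libraries. Counts are 24 to 47 per window in the first 60 kb and 8 to 15 between 260 and 280 kb, and the last window is cut short by the end of the gene.

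Neighbouring clusters of *EXT1* were close together, which goes with the number of clusters by which the gene was chosen. The gap lengths are therefore also a description, and the other genes were not matched for density. The median distance between the mode positions of adjacent clusters, where PARalyzer places the peak of each, was 457 nt, 602 nt, 426 nt and 429 nt. Of these gaps, 11%, 13.5%, 11.6% and 14.4% were at most 100 nt, against a median of 4.55%, 4.55%, 3.66% and 3.55% over the 515 to 518 other genes with at least 200 clusters in the 4 libraries together and at least 20 in the library. The form of the spacing was less different. The median gap divided by the mean gap was 0.591, 0.594, 0.603 and 0.596 in *EXT1*, with a median of 0.590, 0.561, 0.626 and 0.621 in those other genes.

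Reads were concentrated in few clusters. The median *EXT1* cluster had 15, 15, 16 and 17 reads, and the median intronic cluster of other genes 10, 9, 11 and 11. Clusters with 100 or more reads numbered 55 (13.4%), 33 (10.5%), 60 (13.4%) and 47 (10.7%) in *EXT1*, compared with 1.16%, 1.23%, 1.16% and 0.565% of intronic clusters elsewhere. The 10 clusters with the most reads held 30.2%, 28.4%, 29.8% and 22.5% of all *EXT1* reads. *EXT1* clusters also had more positions with a T-to-C change, on average 3.23, 3.78, 2.60 and 2.33 per cluster against 1.85, 2.39, 1.49 and 1.37 in other intronic clusters. These means were not matched for reads per cluster.

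Most of the sites with the highest mean share of reads were listed in all 4 libraries, which ranking by that mean favours. Clusters of the 4 libraries that shared at least 1 nt and the strand were joined into sites, and the 10 sites with the highest mean share of library reads are given here. All 10 lie in intron 1. The site at chr8:119082884-119082929, 41.1 kb from the transcription start, had 1582 reads in the parental cytoplasmic, 819 in the *KRT19* KO cytoplasmic, 650 in the parental nuclear and 588 in the *KRT19* KO nuclear library. It was the *EXT1* cluster with the most reads in every library but the parental nuclear, where the site at chr8:119077988-119078028 had 1119 reads. That site, 46.1 kb from the start, had 585, 372 and 416 reads in the other 3 libraries. The site at chr8:118990785-118990820, 133 kb from the start, had 778, 489, 879 and 445 reads.

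A group of 3 strong sites lay near the 5' end of intron 1. The site at chr8:119120417-119120456, 3.62 kb from the start, had 931, 392, 714 and 366 reads. Those at 9.30 kb and 9.97 kb had 510, 231, 725 and 485 reads and 579, 195, 757 and 505 reads. Further along, the sites at 40.7 kb, 73.6 kb and 81.6 kb had 457, 316, 334 and 220, then 711, 398, 713 and 319, then 418, 278, 607 and 367 reads. The tenth site, at chr8:119097660-119097709 and 26.4 kb from the start, had 541 reads in the parental cytoplasmic, 643 in the parental nuclear and 380 in the *KRT19* KO nuclear library. No cluster was listed there in the *KRT19* KO cytoplasmic library, although nearby sites on its 3' side were.

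**Figure D2:**
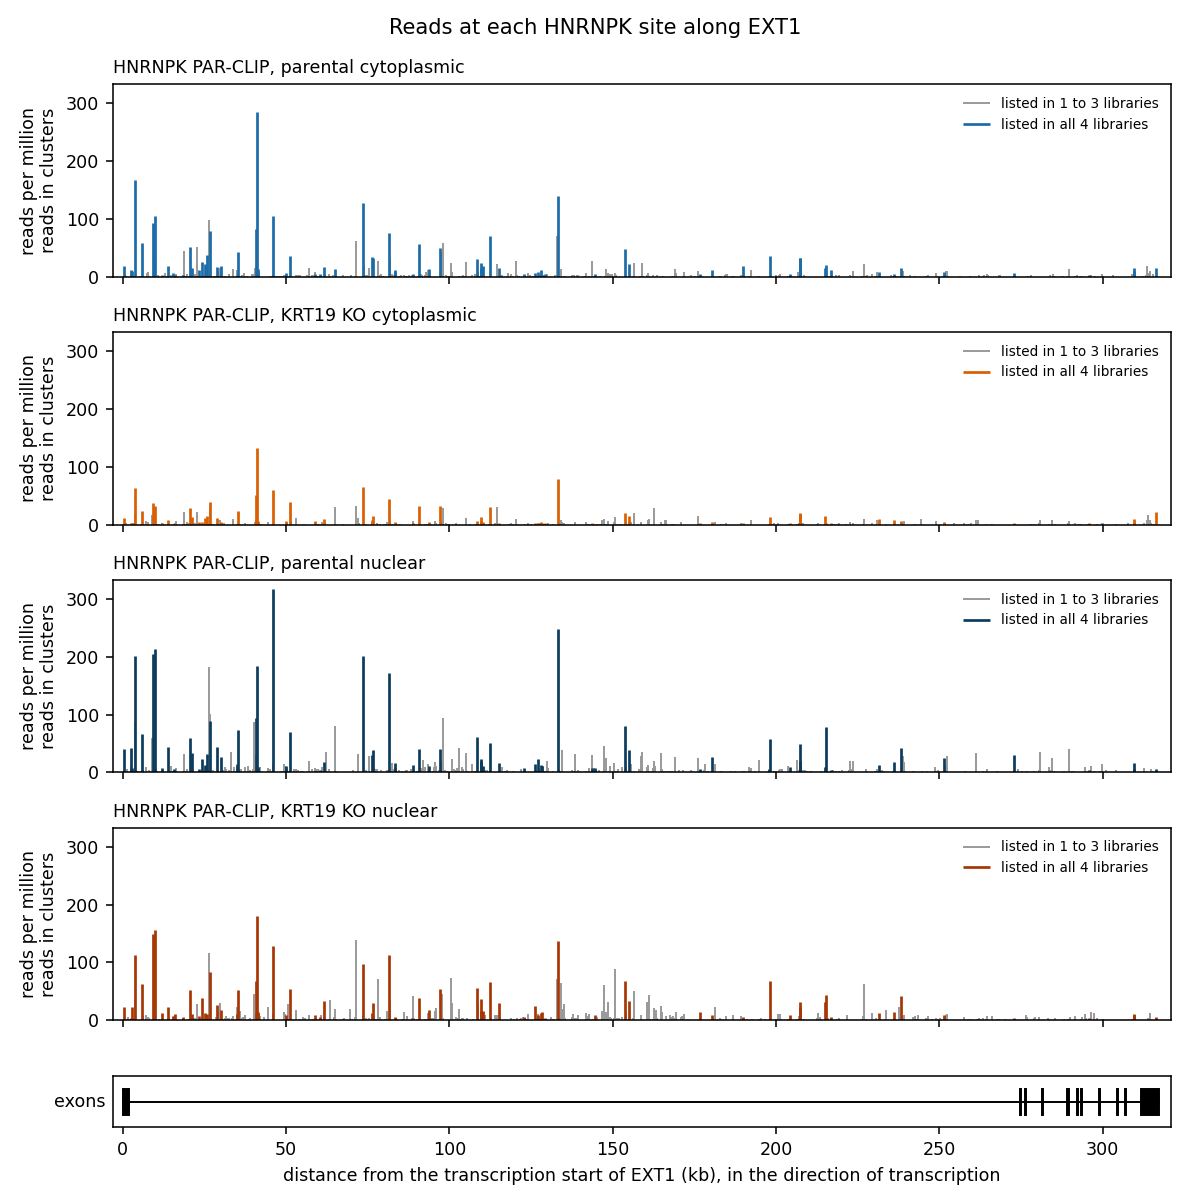
RPM, reads scaled to 1000000 reads in clusters (vertical axis) at each *EXT1* site against its distance from the transcription start (horizontal axis, kb) in the 4 libraries, with the exons as black boxes below, drawn at least 0.4 kb wide. Coloured lines are sites listed in all 4 libraries and grey lines the others. Most of the tall sites between 3.62 kb and 133 kb recur from library to library, and few sites stand out in the 3' part of the gene.

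Over all libraries, the 1612 clusters joined into 967 sites, 938 in introns and 29 outside. Of these, 597 (61.7%) were listed in 1 library, 183 (18.9%) in 2, 106 (10.96%) in 3 and 81 (8.38%) in all 4. Intronic sites of other genes were listed in 1 library in 75.6% of cases and in all 4 in 1.87%. The 81 recurrent sites of *EXT1* held 53.5% of its reads, against 13.4% for the recurrent intronic sites elsewhere, and 79 of them were intronic, 76 in intron 1. The number depends on how clusters are joined, since only 36 sites were in all 4 libraries when mode positions had to lie within 5 nt. A site that is not listed in a library may still be bound, because the tables hold only clusters with at least 5 reads.

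Sharing rose with reads per cluster, so it was compared within classes of reads per cluster. The top class has no upper bound, so depth was not matched within it. Among clusters with 100 or more reads, 61.8%, 63.6%, 55.0% and 59.6% of those in *EXT1* lay at a site listed in all 4 libraries. For intronic clusters of other genes at that depth the shares were 42.4%, 31.8%, 40.7% and 42.9%. The 95% intervals of the 2 sets did not overlap in the parental cytoplasmic library (48.6% to 73.5% against 39.8% to 44.9%) or the *KRT19* KO cytoplasmic library (46.6% to 77.8% against 29.1% to 34.6%). They overlapped in the parental nuclear library (42.5% to 66.9% against 38.3% to 43.2%) and the *KRT19* KO nuclear library (45.3% to 72.4% against 39.2% to 46.6%). In clusters of 10 to 29 reads, the shares were 9.87%, 27.7%, 10.9% and 12.8% in *EXT1* and 5.69%, 9.92%, 4.02% and 4.86% elsewhere. The intervals of the 2 sets did not overlap in any library there. In clusters of 30 to 99 reads, the shares were 41.7%, 33.8%, 28.1% and 31.9% against 20.9%, 23.8%, 17.7% and 21.6%. There the intervals overlapped only in the *KRT19* KO cytoplasmic library (23.5% to 46.0% against 22.9% to 24.8%). Among *EXT1* clusters under 10 reads the shares were 2.29%, 6.80%, 3.42% and 0.833%.

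**Figure D3:**
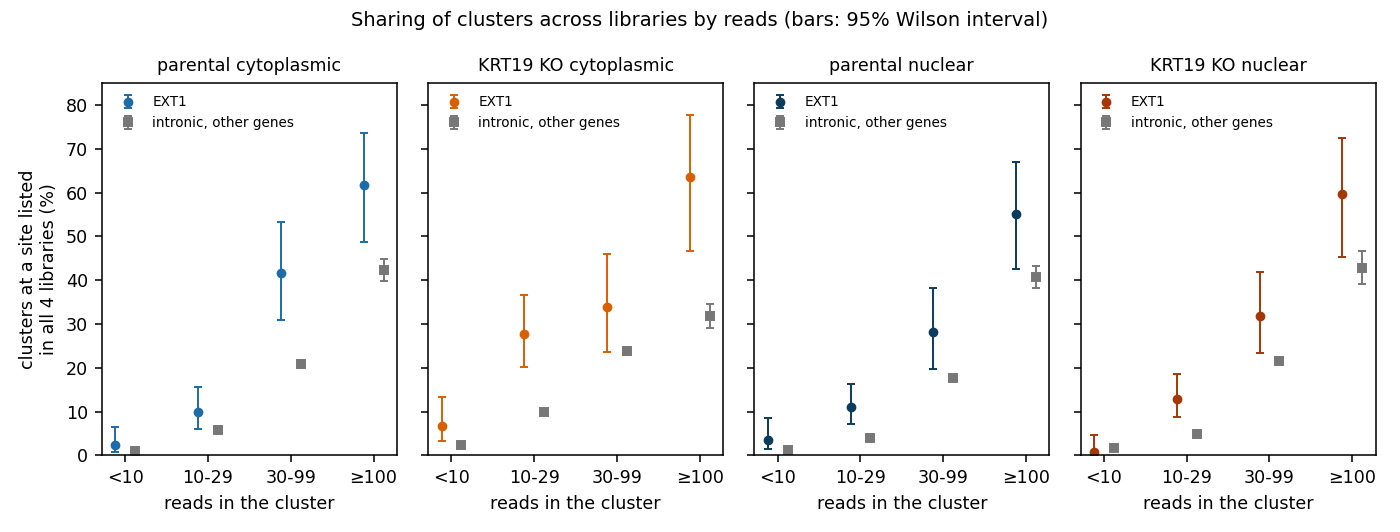
Share of clusters at a site listed in all 4 libraries (vertical axis, %) by the number of reads in the cluster (horizontal axis), for *EXT1* (circles) and intronic clusters of other genes (squares), with 95% Wilson intervals as bars and a panel for each library. The share rises with reads in both sets, and *EXT1* lies above the other genes in every class except the clusters under 10 reads of the *KRT19* KO nuclear library.

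*EXT1* sites were shared between pairs of libraries across fractions and genotypes. Of the 410 parental cytoplasmic clusters, 152 (37.1%) lay at a site of the *KRT19* KO cytoplasmic library, 170 (41.5%) at a site of the parental nuclear library and 177 (43.2%) at a site of the *KRT19* KO nuclear library, against 22.8%, 24.8% and 21.3% of other intronic clusters. Of the 313 *KRT19* KO cytoplasmic clusters, 48.6% lay at a site of the parental cytoplasmic library, 48.6% at one of the parental nuclear library and 55.0% at one of the *KRT19* KO nuclear library. For other intronic clusters these shares were 31.9%, 28.2% and 27.2%, highest with the parental cytoplasm, whereas the value of *EXT1* was highest with the *KRT19* KO nucleus. The 95% intervals of the 3 *EXT1* shares overlapped, and other intronic clusters also held fewer reads each. Sites listed in exactly 2 libraries made up 18.9% of *EXT1* sites and 16.5% of intronic sites of other genes. In *EXT1*, 18 were in both cytoplasmic libraries and no other, 34 in both nuclear ones, 37 in both parental ones and 35 in both *KRT19* KO ones, beside 36 and 23 in the pairs that share neither fraction nor genotype. The split by pair is not given for other genes, so these counts have no background. Over the 81 sites in all 4 libraries, the RPM values of any pair of libraries had a Spearman rho between 0.761 and 0.851, where the points share the gene and each library's depth.

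The exonic clusters of *EXT1* were few. The 5'UTR had 1 site, at chr8:119123591-119123625 and 0.45 kb from the transcription start, with 101, 65, 141 and 74 reads. Coding sequence had 11 sites, of which 10 were listed in 1 library each. The remaining coding site, in exon 7 at chr8:118830719-118830742, had 9, 8 and 10 reads in the parental cytoplasmic, *KRT19* KO cytoplasmic and *KRT19* KO nuclear libraries and was not listed in the parental nuclear library. A further site covered the start codon in the parental cytoplasmic library, with 12 reads.

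The 3'UTR, in exon 11, had 16 sites, of which 6 were listed in 1 library, 7 in 2, 2 in 3 and 1 in all 4. The site in all 4 libraries, at chr8:118807548-118807605, had 83 and 130 reads in the parental and *KRT19* KO cytoplasmic libraries and 22 and 21 in the nuclear ones. The site at chr8:118810057-118810109 had 36 and 102 reads in the cytoplasmic libraries and 11 in the *KRT19* KO nuclear library, and that at chr8:118811365-118811393 had 8, 8 and 27 reads in the 2 cytoplasmic libraries and the parental nuclear library. Both cytoplasmic libraries listed more 3'UTR clusters than the nuclear ones, 11 and 12 against 4 and 4. Those are ratios of 2.75 in parental and 3 in *KRT19* KO cells, beside 2.78 and 3.53 for the 3'UTR clusters of all other genes, so *EXT1* was near the background. As a share of 3'UTR reads, *EXT1* was lower in the cytoplasm than in the nucleus, at a ratio of 0.521 (95% interval 0.409 to 0.663) for parental and 0.331 (0.260 to 0.421) for *KRT19* KO cells, where the median gene had 1.37 and 1.24. Per kb, exon 11 had 2.03 and 2.22 clusters in the parental and *KRT19* KO cytoplasmic libraries and 0.740 in each nuclear library. The comparison with intron 1 that follows was not matched for position along the gene. Its density divided by that of intron 1 was 1.48 (95% interval 0.815 to 2.70) in the parental cytoplasmic, 2.18 (1.22 to 3.88) in the *KRT19* KO cytoplasmic, 0.490 (0.183 to 1.31) in the parental nuclear and 0.495 (0.185 to 1.32) in the *KRT19* KO nuclear library, so the interval excluded equal density only in the *KRT19* KO cytoplasmic library.

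Reads in the 3'UTR numbered 382, 430, 79 and 78, or 1.62%, 3.23%, 0.329% and 0.406% of *EXT1* reads. In the whole libraries, 3'UTR clusters held 31.6%, 47.4%, 5.35% and 5.43% of reads. *EXT1* was therefore mostly intron-bound in the cytoplasmic libraries too, with 97.8% and 95.9% of its reads in introns in the parental and *KRT19* KO cytoplasm.

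Of all reads in clusters, *EXT1* took 0.424% (95% Wilson interval 0.418% to 0.429%) in the parental cytoplasmic library, 0.214% (0.210% to 0.218%) in the *KRT19* KO cytoplasmic, 0.680% (0.671% to 0.688%) in the parental nuclear and 0.591% (0.583% to 0.600%) in the *KRT19* KO nuclear library. Without the cluster with the most reads in each library these shares were 0.450%, 0.218%, 0.682% and 0.598%. The *KRT19* KO cytoplasmic share was lower than the parental by a ratio of 0.505 (0.494 to 0.516), and the median ratio of the 7783 genes with at least 100 reads in the 2 libraries together was 0.956. A ratio of 0.5 or below was seen in 20% of those genes, and 20.4% had a ratio below that of *EXT1*. Without the cluster with the most reads in each library the ratio was 0.485, which is past 2-fold. In the nuclear libraries the ratio of *KRT19* KO to parental was 0.870 (0.853 to 0.886), with a median gene at 0.929. Cytoplasm over nucleus was 0.624 (0.613 to 0.635) for parental cells, or 0.660 without those clusters, and 0.362 (0.354 to 0.370) for *KRT19* KO cells, where the median gene had 0.714 and 0.715.

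The intronic share of the library moved with these differences. Counted only among intronic reads, *EXT1* took 0.978%, 0.891%, 1.00% and 0.981%, and ranked 2, 2, 1 and 1 among all genes. Without the *SLCO5A1* cluster the parental cytoplasmic share was 1.13%. On the intronic scale *KRT19* KO over parental was 0.911 (0.892 to 0.931) in the cytoplasm, where the median of 5062 genes was 1.12, and 0.977 (0.959 to 0.996) in the nucleus. Without the *SLCO5A1* cluster the cytoplasmic ratio was 0.786 (0.769 to 0.803) and the median gene 0.964. Cytoplasm over nucleus on intronic reads was 0.974 (0.957 to 0.992) for parental and 0.909 (0.889 to 0.929) for *KRT19* KO cells, with median genes at 0.809 and 0.857. For parental cells it turned to 1.13 (1.11 to 1.151), with a median gene at 0.938, once that cluster was left out. Among 3'UTR reads, *KRT19* KO over parental was 0.671 (0.585 to 0.770) in the cytoplasm and 1.06 (0.773 to 1.45) in the nucleus, the second resting on 78 and 79 reads.

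**Figure D4:**
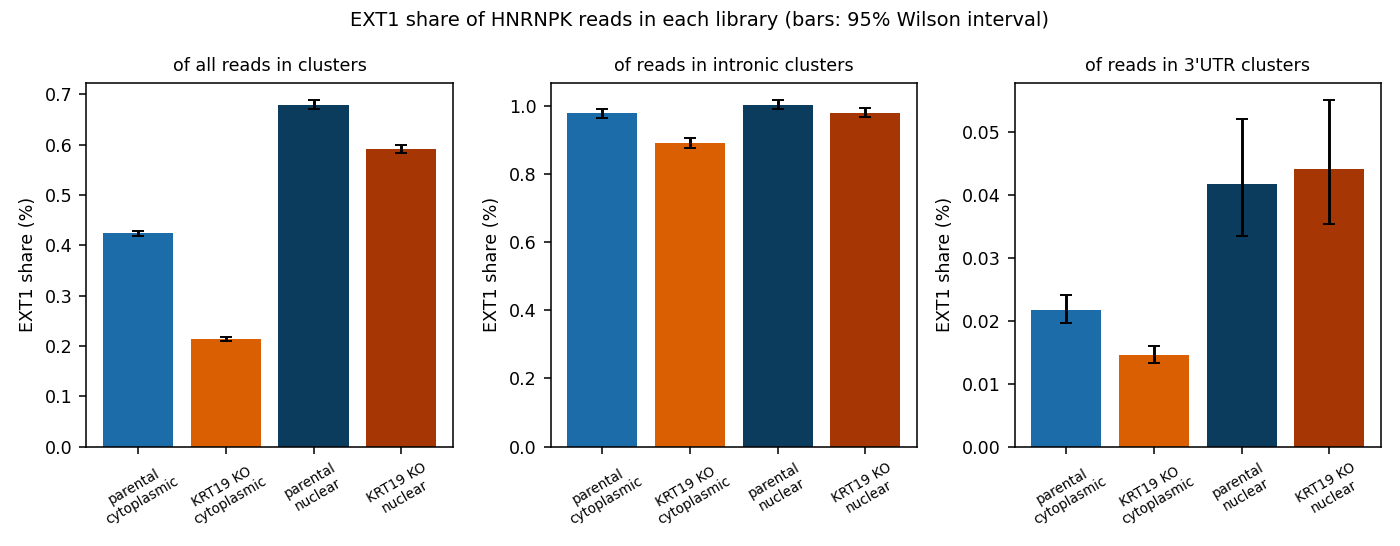
*EXT1* share (vertical axes, %) of all reads in clusters, of reads in intronic clusters and of reads in 3'UTR clusters, with a bar for each of the 4 libraries and 95% Wilson intervals. Of all reads the share runs from 0.214% to 0.680%, while of intronic reads it runs from 0.891% to 1.00%, with the parental cytoplasmic bar at 1.13% when the *SLCO5A1* cluster is left out.

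Along the gene, the lower share in the *KRT19* KO cytoplasm held in 14 of 16 windows. In the 8 windows of 20 kb up to 160 kb, *KRT19* KO over parental RPM was 0.370 to 0.625. Further on it was 1.34 from 160 to 180 kb, where RPM was 69.2 in parental and 92.5 in *KRT19* KO cytoplasm. From 180 to 260 kb it was 0.399 to 0.609, inside the range of the first 8 windows. It was 0.864 from 260 to 280 kb, 1.07 from 280 to 300 kb and 0.857 in the last window. The windows are given on all reads only. Of the 81 sites in all 4 libraries, 74 had a higher RPM in the parental than in the *KRT19* KO cytoplasmic library and 7 a lower one, with a median parental over *KRT19* KO ratio of 2.21. On the scale of intronic reads, 50 of the 79 intronic sites were higher in parental cytoplasm and 29 in *KRT19* KO, with a median ratio of 1.22, or 61 and 18 with a median of 1.41 without the *SLCO5A1* cluster. Between the nuclear libraries, 45 sites were higher in parental and 36 in *KRT19* KO cells, with a median ratio of 1.051, and on intronic reads 36 and 43 of the 79, with a median of 0.937. The reads at a site scale with the amount of the RNA as well as with its binding, and the contributions cannot be told apart here. These sites were selected for being listed in every library.

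T-to-C changes were found in 61.9% (95% interval 61.3% to 62.5%) of *EXT1* reads in the parental cytoplasmic, 63.0% (62.2% to 63.9%) in the *KRT19* KO cytoplasmic, 61.7% (61.1% to 62.3%) in the parental nuclear and 62.1% (61.4% to 62.8%) in the *KRT19* KO nuclear library. The range over libraries was thus narrow, and other intronic clusters had higher and more varied shares, at 74.4%, 68.1%, 74.0% and 78.6%, the first being 70.4% without the *SLCO5A1* cluster. Reads per cluster moved with this difference. In clusters under 10 reads, 91.1%, 86.1%, 96.7% and 99.3% of *EXT1* reads and 94.3%, 89.6%, 97.4% and 98.2% of other intronic reads had a change. In clusters of 100 or more reads, the median cluster had 58.8%, 62.9%, 56.9% and 52.2% in *EXT1* and 56.6%, 56.4%, 55.5% and 55.8% elsewhere. The 11, 12, 4 and 4 clusters of the 3'UTR had 56.8%, 66.3%, 75.9% and 83.3%, with the nuclear values resting on 79 and 78 reads.

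The sequence under the clusters held more C and less G than the gene as a whole. By the study's methods, RNase T1 was added to the lysates, and a cluster needs T-to-C changes. The part of either in this base content was not tested. On the transcribed strand, *EXT1* as a whole is 20.03% C, 21.1% G, 31.0% U and 27.8% A. Its clusters were 26.3%, 26.9%, 25.7% and 27.7% C and 10.01%, 8.002%, 11.2% and 9.14% G. Intronic clusters of other genes had like C, at 25.9%, 25.9%, 27.4% and 28.6%, and less G, at 6.01%, 5.34%, 8.16% and 6.09%. Clusters of *EXT1* at sites listed in all 4 libraries had 29.1% to 29.6% C and 3.77% to 4.56% G, against 31.3% to 31.6% C and 2.53% to 3.03% G at such sites elsewhere. *EXT1* clusters listed in 1 library had 22.9% to 27.0% C and 13.2% to 16.2% G.

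Short C words of the transcribed strand were searched with overlapping matches, and UCCC, UUCCC and UCCCC all contain CCC. The part of the RNase T1 step and of the needed T-to-C change in the ratios below was not tested either. Of the 3673 places with CCC in the gene, 14.9% lay wholly inside a site, while sites covered 9.02% of the gene, a ratio of 1.65. The ratio was 2.09 for UCCC, 2.51 for UUCCC and 2.48 for UCCCC, and 0.668 for GGG. Sites in all 4 libraries covered 0.946% of the gene and gave higher ratios, at 2.59 for CCC, 3.77 for UCCC, 5.30 for UUCCC, 6.49 for UCCCC and 0.104 for GGG. Both UUU and AAA were above the cover less strongly, at 1.30 and 1.19 for all sites. A CCC was held by 37.8%, 39.0%, 35.0% and 39.1% of *EXT1* clusters and by 40.6%, 41.3%, 45.2% and 44.3% of other intronic clusters. Thus most CCC words of *EXT1* lay outside the sites, and across 15 full windows of 20 kb the number of CCC words and of sites had a Spearman rho of -0.129, with all windows from this gene.

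The genes nearest to *EXT1* in pattern over the 4 libraries were picked by that pattern, so their likeness is a description. Among 519 genes with at least 200 clusters in all, the genes nearest to *EXT1* in the log2 share of clusters by library, centred on each gene's mean, were EGFR, FAM49B, PLEKHA5, VPS13B and STAG1. Their distances, as the root of summed squared log2 differences over the 4 libraries, were 0.03, 0.05, 0.06, 0.08 and 0.09, with a median over all genes of 0.47. EGFR had 185, 143, 208 and 200 clusters. STAG1, a cohesin subunit, had 131, 94, 135 and 129, and VPS13B, a lipid transfer protein, 156, 122, 166 and 160.

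*EXT1* was chosen for its number of clusters and stood first in each library, so the other genes of heparan sulfate synthesis necessarily had fewer. Their counts are a description. In a list of 50 such genes, 45 had a cluster in at least 1 library, 30 in all 4 and 5 in none. *EXT2*, the partner of *EXT1* in chain elongation, had 22, 15, 31 and 31 clusters, or 0.141, 0.0960, 0.198 and 0.198 per kb of gene. The median gene of at least 100 kb had 0.0774, 0.0497, 0.0743 and 0.0651 per kb. Of the other elongation genes, EXTL2 had 8, 6, 2 and 5 clusters, EXTL3 had 7, 7, 3 and 5, and EXTL1 had none. GPC6, a glypican core protein, came closest to *EXT1* with 227, 83, 184 and 107 clusters over 1181 kb. HS2ST1, the 2-O-sulfotransferase, followed with 83, 46, 52 and 51.

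In the cytoplasm, 25 members besides *EXT1* had at least 100 reads in the parental and *KRT19* KO libraries together. Their share of reads in *KRT19* KO was at least 2-fold higher for 4, at most 0.5 of the parental for 9 and between for 12, against 19.4% and 20% of all 7783 genes. The median ratio was 0.635 for the list and 0.956 for all genes. Lower were the elongation gene EXTL2 at 0.490 (95% interval 0.397 to 0.606), the epimerase gene GLCE at 0.484 (0.424 to 0.551), the 6-O-sulfotransferase genes HS6ST2 at 0.0418 and HS6ST3 at 0.0413, and PAPSS1, whose product makes the sulfate donor, at 0.436. The core protein genes SDC1, GPC4, GPC6 and COL18A1 had 0.494, 0.0638, 0.244 and 0.376. Higher were SLC35B2 and SLC35B3, transporters of the sulfate donor, at 2.16 and 3.87, and the syndecan genes SDC3 and SDC4 at 2.44 and 2.19. *EXT2* had 0.693 (0.560 to 0.858) and EXTL3 0.587 (0.431 to 0.798). The core protein gene HSPG2, counted as between, lay near the cut at 0.506 (0.364 to 0.705), and the parental total keeps the *SLCO5A1* cluster.

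In the nucleus, 22 members had enough reads, of which 1 was higher, 4 were lower and 17 between, against 11.1% and 15.5% of 7349 genes. GPC5 was higher at 3.22 (2.35 to 4.41), and HS6ST2, HS6ST3, SDC1 and HSPG2, the perlecan gene, were lower at 0.118, 0.0892, 0.290 and 0.285. *EXT2* had 1.32 (1.14 to 1.52) there. HS6ST2, HS6ST3 and SDC1 were thus lower in *KRT19* KO in both fractions.

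**Figure D5:**
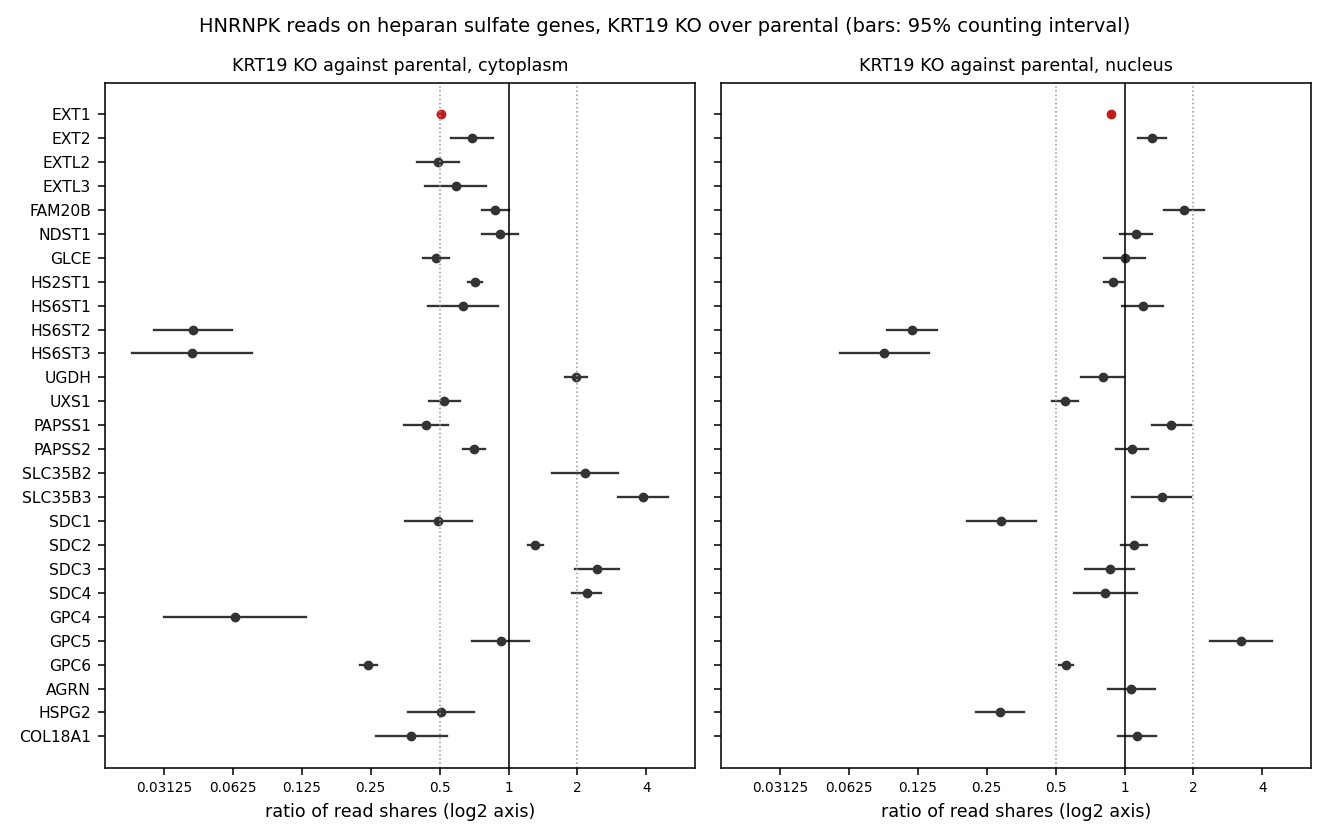
Ratio of the share of HNRNPK reads in *KRT19* KO to that in parental cells (horizontal axes, log2 scale) for each heparan sulfate gene with at least 100 reads, in the cytoplasm (left) and the nucleus (right), with 95% counting intervals as bars and dotted lines at 0.5 and 2. *EXT1*, in red, lies at 0.505 and 0.870, with intervals narrower than its point.

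Between fractions, cytoplasm over nucleus in parental cells was at least 2-fold higher for 3 and at most 0.5 for 8 of 25 members, against 18.9% and 31.2% of 7766 genes. In *KRT19* KO cells it was higher for 3 and lower for 10 of 22, against 26.0% and 38.0% of 7688 genes. *EXT2* had 0.358 (0.2998 to 0.427) and 0.188 (0.156 to 0.227), lower than *EXT1* in each cell line. Cytoplasmic and nuclear shares both enter these ratios and those between genotypes, so the comparisons are not independent of each other.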

How the data were processed

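HNRNPK PAR-CLIP of MDA-MB-231 cells was analysed in 4 libraries, 1 for each cell line and fraction, and the 17 RNA-seq samples were left aside. By the study's methods, the authors split reads by sample (Bcl2fastq, cutadapt), collapsed identical reads while molecular identifiers were still attached, trimmed them, aligned to hg19 and called clusters with PARalyzer in PARpipe. The authors deposited raw counts per cluster (reads, unique reads, conversion locations, T-to-C reads) without normalization. The deposited fraction of T-to-C reads, mode score and log10 conversion specificity were not used.

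Cluster sequences equalled GRCh37 at the stated positions for all *EXT1* clusters. Exons came from GENCODE lifted to GRCh37, and 14872 of 18322 gene names were matched to a span. Shares have 95% Wilson intervals and ratios of shares 95% Wald intervals of the log ratio of Poisson counts. Genes with at least 100 reads in a pair of libraries formed the background, called past 2-fold with a pseudocount of 1 read. Joining and calling were tested on simulated data. Python 3.11.15 with pandas, scipy and pysam was used. Named genes were *EXT1*, the gene next below it in each library, 3 long genes with many clusters, the 5 genes of nearest profile and the heparan sulfate genes with 100 reads or past 2-fold. Named sites were the 10 with the highest mean share of reads and exonic sites in at least 3 libraries. Members and lists were chosen with earlier results of these data known, and *NEAT1*, *MALAT1*, *SLCO5A1*, HMGA2 and the density of EGFR after values were seen. Alternatives covered minimum reads, conversion locations, unique reads, the denominator, read weighting and the joining rule and, added after seeing the data, totals without each library's cluster with the most reads.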

Additional observations from a re-analysis of the deposited data

Results flagged for a closer look

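The share of *EXT1* clusters in intron 1 moved in opposite directions with loss of keratin 19 in the 2 fractions. It fell by 2.40 percentage points in the cytoplasm, from 91.2% (95% interval 88.1% to 93.6%) to 88.8% (84.8% to 91.8%), and was higher by 0.968 percentage points in the nucleus, from 91.8% to 92.7%. With clusters of at least 10 reads the share fell in both fractions, from 91.8% to 89.5% in the cytoplasm and from 93.1% to 92.2% in the nucleus, so the opposite directions were lost. The intervals overlapped in both fractions, and with 1 library per condition the difference between the fractions was not tested.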

How the results depend on the processing

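Counts and shares of *EXT1* were recomputed under other settings. Among the settings planned, 31 values stayed within 1.5 times the count or inside the interval of the value reported and 28 moved, with no ratio changing direction, while 1 of the 8 added later turned. With at least 2 conversion locations, clusters numbered 241 in the parental cytoplasmic, 229 in the *KRT19* KO cytoplasmic, 212 in the parental nuclear and 205 in the *KRT19* KO nuclear library, so the *KRT19* KO cytoplasm was no longer the lowest. Weighted by reads, the intron 1 share was 96.0%, 93.1%, 95.7% and 96.6%. As a mean over clusters, the T-to-C share was 74.5%, 72.2%, 77.1% and 79.8%, and without its cluster with the most reads the parental nuclear library had 62.7%.

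For the share ratios, *KRT19* KO over parental in the cytoplasm was 0.911 on intronic reads, 0.482 with at least 10 reads, 0.476 on unique reads and 0.867 on the number of clusters. In the nucleus it was 0.977 on intronic reads and 0.986 on the number of clusters. Cytoplasm over nucleus in parental cells was 0.974 on intronic reads, 0.610 without the *EXT1* cluster with the most reads, 0.592 with at least 10 reads and 0.907 on the number of clusters. In *KRT19* KO cells it was 0.909, 0.350, 0.324 and 0.798 under the same settings and 0.342 on unique reads. Chosen after seeing the data, totals without each library's cluster with the most reads gave 0.485 for *KRT19* KO over parental in the cytoplasm and 0.660 for cytoplasm over nucleus in parental cells. With both intronic reads and that exclusion, the 4 ratios were 0.786, 0.977, 1.13 and 0.909, the third of which turned its direction because the cluster left out of the parental cytoplasmic library was intronic. With mode positions within 5 nt as the joining rule, 36 sites were in all 4 libraries.

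No paired analysis was possible because each PAR-CLIP condition had 1 library. Depth limits the exonic values most, since the nuclear libraries had 79 and 78 reads in the 3'UTR.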

Other observations

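Strong sites were at times missing from a single library. Of the 31 *EXT1* sites with at least 100 reads in 3 libraries, 7 (22.6%, 95% interval 11.4% to 39.8%) had no cluster in the fourth, and for intronic sites of other genes this held for 77 of 280 (27.5%, 22.6% to 33.0%). The library that lacked the site was the *KRT19* KO nuclear for 3 of the 7, the parental nuclear for 2, and the parental and *KRT19* KO cytoplasmic for 1 each. The site at chr8:119052564-119052608 had 339, 196 and 454 reads in the parental cytoplasmic, *KRT19* KO cytoplasmic and *KRT19* KO nuclear libraries and none listed in the parental nuclear library. The site at chr8:119097220-119097263 had 343, 168 and 357 reads and none listed in the *KRT19* KO nuclear library. The deposited tables give clusters and not the reads outside them, so whether reads were present at these positions was not tested.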
